A study of Saccharomyces cerevisiae with 36 samples.

Results

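PAB1 and 6 further genes for RNA-binding proteins of yeast stress granules were followed through heat and through RNA fractionation: PAB1 (YER165W), PUB1 (YNL016W), NGR1 (YBR212W), PBP1 (YGR178C), PBP4 (YDL053C), LSM12 (YHR121W) and GIS2 (YNL255C). They were picked by name and not by a rule on their values, though with earlier results of these data known. They are 7 of the 6697 genes in the count table. All 7 passed the filter on low counts in every model. The cells were Saccharomyces cerevisiae of the W303 Ade+ background. All carried an mCherry tag on Ded1, a DEAD-box helicase of translation initiation. The strain called WT here has the genotype Ded1-mCherry, and the strain called IDRm has Ded1_IDRm-mCherry, so that no strain with untagged Ded1 was compared. Each strain was grown at 30 °C, the cultures were divided over 30, 40 and 42 °C for 10 min, and RNA was sequenced as total, pellet (insoluble) and soluble RNA. Each of the 18 groups held 2 libraries. The protocols speak of duplicate cultures per strain, but that a replicate number stands for the same culture throughout is not stated, so libraries of 1 strain may share their source.

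Stress granules are assemblies of mRNA, RNA-binding proteins and translation factors that form in the cytoplasm of stressed cells. Pab1 coats poly(A) tails and binds the initiation factor eIF4G, which links the tail to the cap of an mRNA. In yeast, Pab1 protein is known to condense when cells are heated. Pbp1, the relative of human ataxin-2, binds Pab1, and Pbp4 and Lsm12 bind Pbp1. The values below are of the mRNAs that encode these proteins, not of the proteins.

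Each of the 7 genes has 1 uninterrupted coding segment in the R64 annotation and overlaps 0 other annotated genes. PAB1 lies at chrV:510373-512106, PUB1 at chrXIV:602907-604268, NGR1 at chrII:647886-649904 and LSM12 at chrVIII:352756-353319, all on the plus strand. PBP1 lies at chrVII:851047-853215, PBP4 at chrIV:361699-362256 and GIS2 at chrXIV:167329-167790, all on the minus strand. The sources used here do not name the counting tool or its use of strand, so antisense reads cannot be told apart from those of the gene.

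The leader of an mRNA, the stretch before its start codon, is shown because PABP is known in human cells to bind an A-rich leader in its own mRNA. For each gene, the 30 bases richest in A among the 100 bases before the start codon are shown 5′ to 3′ in the direction of the gene (RefSeq annotation, R64), with runs of 4 or more A in capitals.
PAB1: AAAAAAAAAAAtccAAAAAAAActAAAAAA
GIS2: aaatcaggAAAAAAgAAAAgaatacgAAAA
PBP1: aaggggaagcaataattaaatctttgAAAA
PUB1: aatagcaggttcataataagaagattacca
The PAB1 stretch lies at chrV:510329-510358 on the plus strand, from 44 to 15 bases before the start codon, and 25 of its 30 bases are A. Of 6020 protein-coding genes, 0.349% had a stretch with as many A. GIS2 (chrXIV:167793-167822, minus strand) had 21 A, a number reached by 5.28% of genes. PBP1 (chrVII:853286-853315, minus strand) had 15 A and PUB1 (chrXIV:602854-602883, plus strand) had 14, while LSM12 had 13 and NGR1 and PBP4 had 11 each. So rich a stretch was seen in PAB1, and to a lesser degree in GIS2, and not in the other 5 genes. Where transcription starts was not measured, so these bases are taken as leader only by their place before the start codon.

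The 250 bases before each start codon were also searched on both strands for AGGGG, the stress response element bound by Msn2 and Msn4, and for GAANNTTC and TTCNNGAA, inverted pairs of the unit bound by heat shock factor Hsf1. AGGGG lay in 18.7% of 6020 genes and in 1 of the 7, PBP1. The Hsf1 pair lay in 19.3% of genes and in PBP1 and PBP4. The matches of PBP1, the 1 gene with both motifs, are shown with the motif in capitals. The Hsf1 pairs of PBP4 began 248 and 60 bases before its start codon and are not shown. A link between a motif and a change with heat was not tested.
PBP1, AGGGG at chrVII:853297-853326, minus strand: aattgatcttgaAGGGGaagcaataattaa
PBP1, Hsf1 pair at chrVII:853335-853364, minus strand: ctttttgttctTTCCAGAAgacgtttcgat
A match describes these letters and is not evidence of binding.

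Libraries held 4934241 to 13730247 counts. Correlations of log2 levels between the replicates of a group ran from 0.986 to 0.996, except for soluble RNA at 42 °C, where they were 0.966 in WT and 0.977 in IDRm. DED1, the gene that carries the allele, was lower in IDRm than in WT total RNA at 30 °C and at 40 °C. The log2 differences were -0.67 ± 0.17 and -0.68 ± 0.17, and -0.43 ± 0.17 at 42 °C was not called. Within single fractions its strain difference was not tested. At 30 °C its mean was higher in IDRm, 1556 beside 1425 CPM in pellets and 1260 beside 1169 in soluble RNA. At 40 °C both IDRm means were lower (1127 beside 1219, 1138 beside 1270). At 42 °C the pellet mean was higher (1528 beside 1412) and the soluble mean lower (1401 beside 2240). HSP104, a heat-induced disaggregase, stood at 673 CPM in WT total RNA at 30 °C and at 22168 CPM at 40 °C. CPM are counts scaled to a common library size by trimmed mean of M-values (TMM), computed separately for total RNA and for the fractions, so they are relative to the other transcripts of a library. In such bulk RNA, fewer cells with a transcript and less of it in each cell cannot be told apart. Values after ± are approximate standard errors of log2 differences unless an SD is named. Each is the size of the difference divided by the square root of its F statistic. "Called" means an adjusted p under 0.05 in the edgeR quasi-likelihood test, with Benjamini-Hochberg adjustment over all genes of the contrast.

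The 7 transcripts differed widely in level. Per kilobase of coding sequence, WT total RNA at 30 °C held 796 CPM of GIS2 (SD 98.0, n = 2), 569 of PAB1 (SD 192) and 343 of PBP1 (SD 23.6). LSM12 followed with 169 (SD 1.63), PBP4 with 139 (SD 19.3) and PUB1 with 90.4 (SD 22.8). NGR1 was far below the others with 5.77 (SD 0.54). The libraries of neighbours in this order did not overlap, but the means of GIS2 and PAB1 differed by little more than the SD of PAB1. NGR1 had 95 to 188 counts per total RNA library, so its values carry more counting error than those of the other genes.

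The next comparison was heat in total RNA. PAB1 and PBP1 fell in both strains at both temperatures, while NGR1 rose in all 4 contrasts and PBP4 in 3 of 4. In WT at 40 °C, 5 of the 7 were called, 2 higher and 3 lower, beside 69.7% of the 6090 genes tested. In WT at 42 °C, 4 were called (2 higher, 2 lower) beside 61.4%. In IDRm, 6 were called at 40 °C (3 higher, 3 lower) beside 70.4%, and 4 at 42 °C (2 higher, 2 lower) beside 64.8%. With 7 genes these shares stood near the background, so the number called says little and the sizes and directions carry the description. Both temperatures were compared with the same 30 °C libraries.

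PAB1 had the largest change of the 7. In WT its level was 1223 and 751 CPM in the 2 libraries at 30 °C, 269 and 469 at 40 °C, and 456 and 329 at 42 °C. In IDRm it was 641 and 785 CPM at 30 °C, 240.2 and 199.6 at 40 °C, and 179.5 and 193 at 42 °C. Every heated library lay below every 30 °C library of its strain, although the WT replicates were far apart. The fall in WT was -1.42 ± 0.28 at 40 °C (adjusted p = 0.000826) and -1.33 ± 0.28 at 42 °C (adjusted p = 0.00173). In IDRm it was -1.70 ± 0.29 (adjusted p = 0.00023) and -1.94 ± 0.29 (adjusted p = 0.000112). Leaving out any 1 library kept the 4 calls, with the WT 40 °C value between -1.90 and -1.06. Of all genes tested, 7.65% fell more than PAB1 in WT at 40 °C and 0.92% in IDRm at 42 °C.

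PBP1 fell to nearly the same level in both strains. In WT it went from 780 and 708 CPM at 30 °C to 445 and 405 at 40 °C and to 366 and 476 at 42 °C. In IDRm it went from 751 and 731 CPM to 388 and 391, and then to 375 and 424.5. No heated library reached a 30 °C library. The log2 changes were -0.81 ± 0.13 and -0.82 ± 0.13 in WT and -0.93 ± 0.13 and -0.89 ± 0.13 in IDRm at 40 and 42 °C, and all 4 were called, also with any 1 library left out.

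NGR1 encodes an RNA-binding protein that promotes decay of some mRNAs. Its level in WT was 10.9 and 12.4 CPM at 30 °C, 17.8 and 19.0 at 40 °C, and 16.2 and 15.9 at 42 °C. In IDRm it was 11.2 and 8.76 CPM, then 13.4 and 14.5, then 17.5 and 17.2. The heated libraries all lay above those at 30 °C. It rose by 0.65 ± 0.16 in WT at 40 °C and by 0.80 ± 0.16 in IDRm at 42 °C. The smaller rises of 0.46 ± 0.16 in WT at 42 °C and 0.48 ± 0.17 in IDRm at 40 °C were also called. The former was lost without WT 30 °C replicate 1 (0.33) or either WT 42 °C library (0.44 and 0.43), and the latter without IDRm 30 °C replicate 2 (0.27) or IDRm 40 °C replicate 2 (0.41). The former was also lost with DESeq2 (0.40) and with only the groups compared (0.43). The latter was also lost with library totals (0.30) and DESeq2 (0.43).

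PUB1, whose protein binds U-rich RNA and helps stress granules assemble, was not called with heat in either strain. Its level in WT was 101 and 145 CPM at 30 °C, 118 and 138 at 40 °C, and 172 and 125 at 42 °C, and the 3 temperatures overlapped. In IDRm all 6 libraries lay between 81.6 and 98.3 CPM. The WT changes were 0.06 ± 0.17 at 40 °C and 0.27 ± 0.17 at 42 °C, and the latter was called without WT 30 °C replicate 2 (0.51).

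PBP4 and LSM12, the partners of Pbp1, moved upward from 30 °C where they were called. Short genes did so in general. In genes under 600 bp, to which both belong, the median change was 0.34 in WT at 40 °C and 0.40 at 42 °C. In IDRm it was 0.43 and 0.42. Of the called rises, that of PBP4 in WT at 40 °C was above this median and the others were below it. The part of length was not tested. PBP4 went in WT from 85.3 and 70.0 CPM at 30 °C to 114 and 118 at 40 °C and to 85.3 and 103 at 42 °C, so the 30 and 42 °C libraries met at 85.3 CPM and the 40 °C libraries lay above both. In IDRm it was 102 and 96.8 CPM, then 129 and 129, then 122 and 124. The rise of PBP4 was 0.59 ± 0.12 in WT at 40 °C. The IDRm rises of 0.37 ± 0.12 at 40 °C and 0.31 ± 0.12 at 42 °C were called with all libraries and lost when any 1 of their 4 libraries was left out (0.29 to 0.37, and 0.25 to 0.32). The 40 °C call was also lost with library totals (0.18, adjusted p = 0.14). The 42 °C call was lost with RLE size factors (0.26), library totals (0.24), DESeq2 (0.26) and the replicate block (0.31, adjusted p = 0.058). LSM12 stayed between 94.6 and 140.5 CPM in all 12 total RNA libraries. It was called in WT at 42 °C (0.37 ± 0.11) and in IDRm at 40 °C (0.29 ± 0.11). The former was lost without WT 42 °C replicate 2 (0.29) and with only the groups compared (0.34). The latter was kept in 1 of 4 fits with a library left out (0.15 to 0.39). The IDRm call was also lost with library totals (0.10), RLE size factors (0.24), DESeq2 (0.24) and the replicate block (0.28).

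GIS2 encodes a zinc finger protein related to human CNBP that associates with translating ribosomes. It was 400 and 336 CPM in WT at 30 °C, 274 and 302 at 40 °C, and 369 and 338 at 42 °C. In IDRm it was 353 and 332 CPM, then 267 and 285, then 295 and 306. The 40 °C libraries were the lowest in both strains. GIS2 fell by 0.35 ± 0.12 in WT and by 0.31 ± 0.12 in IDRm at 40 °C. Each call was lost in 2 of 4 fits with a library left out, without WT 30 °C replicate 1 (-0.25) or WT 40 °C replicate 1 (-0.32), and without IDRm 30 °C replicate 1 (-0.31) or IDRm 40 °C replicate 1 (-0.28).

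Between 40 and 42 °C the total levels hardly separated. In WT 1 of the 7 was called beside 46.9% of all genes. This was PBP4, lower at 42 °C by -0.31 ± 0.12 (adjusted p = 0.046). The call was lost with RLE size factors, library totals, DESeq2, a model of the groups compared and the replicate block. It was also lost in 3 of 4 fits with a library left out (-0.18 without WT 42 °C replicate 1). GIS2, at 0.29 ± 0.12 (adjusted p = 0.0503), was not called, but was with library totals (0.43) and with DESeq2 (0.29). In IDRm 0 were called by edgeR, with 0 at an unadjusted p under 0.05, and 42.2% of all genes were called. With library totals NGR1 was called there (0.43).

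**Figure D1:**
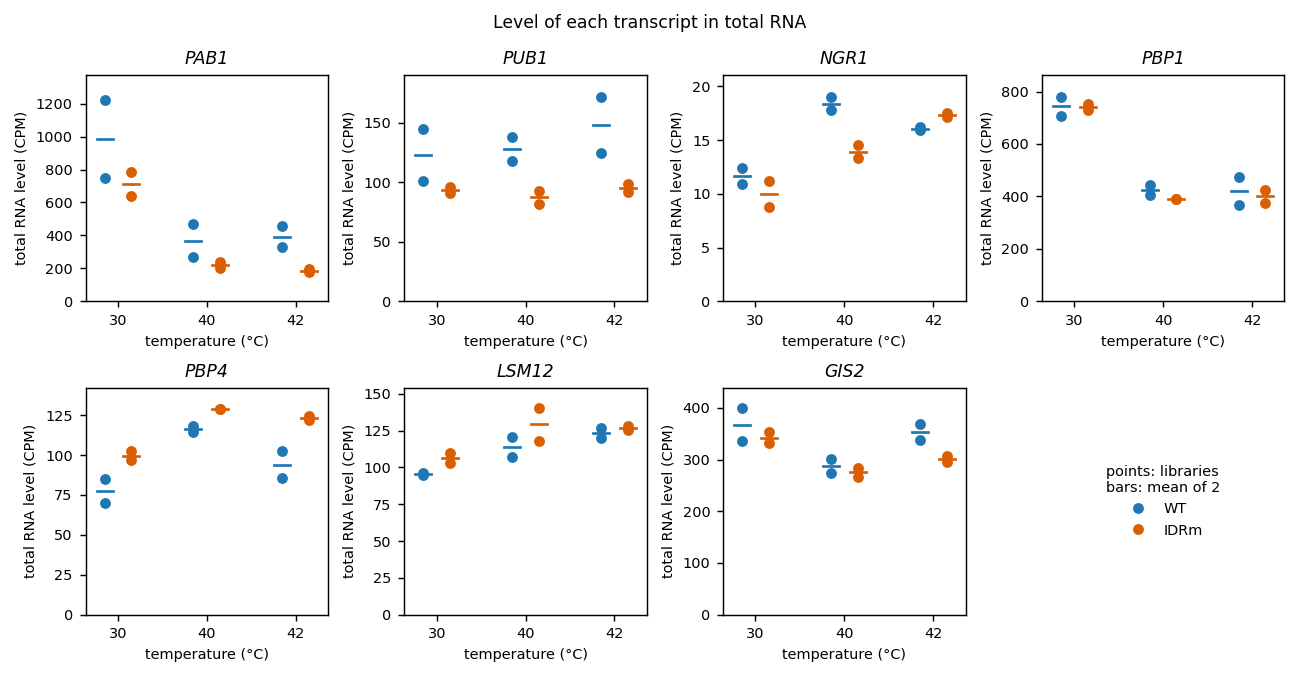
Level of the 7 transcripts in total RNA (CPM, linear axes from 0) against temperature. Points are single libraries and short bars the mean of 2, with WT in blue and IDRm in orange. PAB1 and PBP1 lie lower at 40 and 42 °C than at 30 °C in both strains, and the orange PUB1 points lie below the blue ones.

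The strains were then compared at each temperature in total RNA. The called differences were those of PUB1 and PAB1, lower in IDRm, and of PBP4, higher in IDRm. At 30 °C 0 of the 7 were called by edgeR, beside 12.9% of all genes, and 2 had an unadjusted p under 0.05. At 40 °C 1 was called, beside 11.1%, and at 42 °C 3 were called (1 higher, 2 lower), beside 23.4%. PUB1 was lower in IDRm by -0.40 ± 0.17 at 30 °C, which was not called, by -0.56 ± 0.17 at 40 °C (adjusted p = 0.0498) and by -0.64 ± 0.17 at 42 °C (adjusted p = 0.0148). All 6 IDRm libraries of PUB1 lay below all 6 WT libraries, of which the lowest had 101 CPM. The call at 40 °C was lost in each of 4 fits with a library left out (-0.67 to -0.45), and that at 42 °C in 3 of 4, where it was -0.39 without WT replicate 1, -0.59 without IDRm replicate 1 and -0.69 without IDRm replicate 2.

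PAB1 was lower in IDRm by -1.07 ± 0.28 at 42 °C (adjusted p = 0.0203). The IDRm libraries (179.5 and 193 CPM) did not overlap the WT libraries (456 and 329 CPM). The call was lost without WT replicate 1 (-0.82), IDRm replicate 1 (-1.02) or IDRm replicate 2 (-1.13). The differences of -0.47 ± 0.28 at 30 °C and -0.75 ± 0.28 at 40 °C were not called. They were called without WT 30 °C replicate 2 (-0.79) and without WT 40 °C replicate 1 (-1.10). PBP4 was higher in IDRm at 42 °C by 0.39 ± 0.12 (adjusted p = 0.0287), and this was lost without WT replicate 1 (0.26), IDRm replicate 1 (0.40) or IDRm replicate 2 (0.38). In the fractions at 30 °C PAB1 went the other way, with all IDRm libraries above all WT libraries. Its means were 1104 beside 828 CPM in pellets and 1132 beside 814 CPM in soluble RNA. At 40 and 42 °C its mean was higher in IDRm pellets and lower in IDRm soluble RNA. Single fractions were not tested between strains. The DED1 difference in total RNA, -0.67 to -0.43, was given above, and its part in the differences in total RNA was not tested.

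Whether heat acted differently in the strains was tested as an interaction. At 40 against 30 °C 0 of the 7 were called by edgeR, with 0 at an unadjusted p under 0.05, beside 1.64% of all genes. At 42 against 30 °C the count was again 0 with 0 at an unadjusted p under 0.05, beside 11.8%. The interaction of PAB1 at 42 °C was -0.61 ± 0.39 (adjusted p = 0.367), which was within the error of this design.

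The fractions were compared next, as the log2 of a transcript's pellet level over its soluble level. The ratio depends on the remaining transcripts of each library: at a ratio of 0 a transcript was as frequent in pellet as in soluble RNA, which does not say which part held more of it. The 7 transcripts spread widely. LSM12 and GIS2 were on the soluble side in every group, PBP4 joined them after heat, PUB1 leaned to the soluble side, NGR1 was on the pellet side in every group, and PAB1 and PBP1 moved toward the pellet with heat, except PAB1 in WT at 42 °C. In WT, 6 of the 7 were called at 30 °C (1 higher in the pellet, 5 lower) beside 68.2% of the 6141 genes tested. All 7 were called at 40 °C (3 higher, 4 lower) beside 73.9%, and 6 at 42 °C (2 higher, 4 lower) beside 79.1%. In IDRm, 4 were called at 30 °C (1 higher, 3 lower) beside 68.2%, 7 at 40 °C (3 higher, 4 lower) beside 71.8%, and 7 at 42 °C (3 higher, 4 lower) beside 78.7%.

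The change of that ratio with heat is called a shift here. Fewer genes passed this contrast, and its standard errors for the 7 were larger than those of the ratios. In WT, 4 of the 7 shifted at 40 against 30 °C (2 toward the pellet, 2 toward the soluble part) beside 21.0% of all genes, and 3 at 42 °C (1 and 2) beside 38.3%. In IDRm, 3 shifted at 40 °C (2 and 1) beside 21.9%, and 4 at 42 °C (2 and 2) beside 37.2%. With 7 genes these numbers say little, and that in WT at 42 °C was near the background. The median over all genes tested lay between -0.01 and 0.06 in these 4 contrasts.

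PAB1 shifted toward the pellet, relative to other transcripts, in both strains at 40 °C, and its ratio differed between the strains at 42 °C. In WT pellets its level was 903 and 753 CPM at 30 °C, 634 and 712 at 40 °C, and 656 and 669.7 at 42 °C. In WT soluble RNA it was 795 and 833 CPM at 30 °C, 228 and 346 at 40 °C, and 580.3 and 576 at 42 °C. The soluble level was lowest at 40 °C and lay between the other temperatures at 42 °C, while the pellet ranges at 40 and 42 °C overlapped. In IDRm pellets it was 1161 and 1048 CPM at 30 °C, 743 and 737 at 40 °C, and 786 and 865 at 42 °C. In IDRm soluble RNA it was 1101 and 1163 CPM at 30 °C, 301 and 218 at 40 °C, and 254 and 243 at 42 °C. The soluble level of IDRm thus stayed low at 42 °C, below both WT libraries of that temperature.

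The log2 pellet-soluble ratio of PAB1 was 0.02 ± 0.16 in WT at 30 °C, 1.23 ± 0.17 at 40 °C (adjusted p = 1.92e-06) and 0.20 ± 0.17 at 42 °C (adjusted p = 0.28). With scaling to library totals the last value was 0.68 and called. In IDRm the ratio was -0.04 ± 0.16, 1.51 ± 0.17 and 1.73 ± 0.17. The shift at 40 °C was 1.20 ± 0.23 in WT and 1.55 ± 0.23 in IDRm, larger than that of 94.5% and 98.3% of genes. At 42 °C against 30 °C it was 0.17 ± 0.23 in WT, not called, and 1.77 ± 0.24 in IDRm (adjusted p = 1e-05). From 40 to 42 °C the ratio in WT fell by 1.03 ± 0.23 (adjusted p = 0.00362), and PAB1 was the 1 member called in that contrast, beside 24.6% of all genes. The value without a library ran from -1.36 to -0.76, and the call was kept in 8 of 8 fits. In IDRm the same step was 0.22 ± 0.23 and not called.

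The difference between the strains in this ratio was tested directly. At 42 °C 2 of the 7 were called, both higher in IDRm, beside 6.95% of all genes. They were PAB1, with 1.53 ± 0.24 (adjusted p = 0.000472), and PBP1, with 0.99 ± 0.16 (adjusted p = 0.000726). PAB1 stood above 99.2% of the genes tested. Both calls were kept in 8 of 8 fits with a library left out (1.46 to 1.60 for PAB1, 0.86 to 1.10 for PBP1), and were lost in a model of the 4 groups compared alone (1.54 and 0.99), which called 0 of 6109 genes. PUB1, at 0.62 ± 0.19 (adjusted p = 0.0555), was not called, but was with RLE size factors (0.64), with DESeq2 (0.64) and without IDRm 42 °C pellet replicate 1 (0.74). At 30 °C 0 of the 7 were called by edgeR, beside 1.09% of all genes, with 3 at an unadjusted p under 0.05. At 40 °C 0 were called beside 1.11%, with 2 at an unadjusted p under 0.05. DESeq2 called PBP1 at both temperatures (0.58 and 0.48).

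The strains were also compared in the shift itself. At 40 against 30 °C 0 of 6141 genes were called (0.0%), and 0 of the 7 had an unadjusted p under 0.05. At 42 against 30 °C 7 genes were called (0.114%), and 0 of the 7 members, with 1 at an unadjusted p under 0.05. This was PAB1, at 1.59 ± 0.33 (adjusted p = 0.0618), above 98.9% of genes. It was called with RLE size factors (1.66), with DESeq2 (1.66) and in 3 of the fits that left out a library (1.58, 1.60 and 1.66). WT soluble RNA at 42 °C, on which these contrasts rest, had the lowest replicate correlation of the study. One of its libraries was also the shallowest, with 2119 counts for PAB1 beside 3222 in the other.

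PBP1 shifted toward the pellet at both temperatures in both strains. In WT pellets it had 533 and 536 CPM at 30 °C, 551 and 598 at 40 °C, and 730.3 and 768 at 42 °C. In WT soluble RNA it had 849 and 861 CPM, then 488 and 445, then 516 and 439.6. In IDRm pellets it had 739 and 739 CPM, then 641 and 668, then 844 and 950.5. In IDRm soluble RNA it had 742 and 799 CPM, then 391 and 355, then 279 and 297. At 30 °C the pellet level was below the soluble level in WT, and after heat it was above it in all 8 pairs of libraries, on the relative scale of CPM.

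The ratio of PBP1 in WT was -0.68 ± 0.11, 0.30 ± 0.11 and 0.65 ± 0.11 at 30, 40 and 42 °C. The 40 °C value was called but lost without WT 40 °C pellet replicate 2 (0.24) or soluble replicate 2 (0.23). In IDRm the ratio was -0.06 ± 0.11, which was not called, then 0.81 ± 0.11 and 1.64 ± 0.12. The shifts against 30 °C were 0.98 ± 0.16 and 1.33 ± 0.16 in WT, and 0.87 ± 0.16 and 1.70 ± 0.16 in IDRm. From 40 to 42 °C PBP1 was the 1 member called in IDRm (0.83 ± 0.16, adjusted p = 0.00156), beside 15.4% of all genes, and was not called in a model of the groups compared alone (0.66). In WT this step was 0.35 ± 0.16 and not called.

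PBP4 shifted in the other direction from the transcript of its partner PBP1. In WT pellets it fell from 65.9 and 58.5 CPM at 30 °C to 26.2 and 30.4 at 40 °C and 26.2 and 26.6 at 42 °C. In WT soluble RNA it went from 85.2 and 89.1 CPM to 146 and 147, and was 144 and 99.0 at 42 °C. In IDRm pellets it went from 81.9 and 82.3 CPM to 31.6 and 38.5, then 33.0 and 22.5, and in IDRm soluble RNA from 106 and 119 CPM to 152 and 140.5, then 178 and 183. No heated library of a fraction overlapped those at 30 °C.

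The ratio of PBP4 at 30 °C was -0.49 ± 0.17 in WT and -0.45 ± 0.17 in IDRm. Both were called, but not with RLE size factors (-0.32 and -0.33), library totals (-0.35 and -0.37) or DESeq2 (-0.32 and -0.33). Leaving out a library moved them to between -0.58 and -0.40 in WT, where 2 of 4 fits kept the call, and to between -0.53 and -0.37 in IDRm, where 1 of 4 did. After heat the ratio was -2.37 ± 0.18 and -2.21 ± 0.18 in WT and -2.06 ± 0.17 and -2.70 ± 0.18 in IDRm. The shifts were -1.88 ± 0.24 and -1.72 ± 0.24 in WT, and -1.61 ± 0.24 and -2.25 ± 0.24 in IDRm, called in all fits with a library left out. Only 0.521% of genes shifted further to the soluble part in WT at 40 °C and 0.814% in IDRm at 42 °C.

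LSM12 and GIS2 were less frequent in pellet than in soluble RNA in every group. LSM12, which encodes the other Pbp1 partner, had 23.2 to 33.5 CPM in all 12 pellet libraries and 127 to 207 CPM in all 12 soluble libraries, with no overlap. Its ratio lay between -2.82 ± 0.15 and -2.26 ± 0.15, among the lowest 3.94% of genes in every group, and its shifts against 30 °C were not called. That in IDRm at 40 °C (-0.46 ± 0.20) was called with RLE size factors (-0.62), DESeq2 (-0.62) and only the groups compared (-0.46), and that at 42 °C without IDRm 42 °C pellet replicate 1 (-0.49). GIS2 had 54.8 to 105 CPM in pellets and 339 to 673 CPM in soluble RNA. Its ratio fell in WT from -2.09 ± 0.17 at 30 °C to -2.90 ± 0.17 and -3.02 ± 0.17, and in IDRm it was -1.98 ± 0.17, -2.47 ± 0.17 and -2.68 ± 0.17.

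The shifts of GIS2 were -0.81 ± 0.23 at 40 °C and -0.94 ± 0.23 at 42 °C in WT, and both were called. In IDRm -0.49 ± 0.23 at 40 °C was not called, but was with DESeq2 (-0.65) and with only the groups compared (-0.49). At 42 °C -0.70 ± 0.23 was called, but not with library totals (-0.56) or only the groups compared (-0.80). The WT call at 42 °C was kept with any 1 library left out. The WT call at 40 °C was lost with library totals (-0.60). Without pellet replicate 1 or soluble replicate 1 of either temperature it was lost as well (-0.78 to -0.70). The IDRm call at 42 °C was lost in 5 of 8 such fits (-0.71 to -0.40, the latter without IDRm 42 °C soluble replicate 1).

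PUB1 and NGR1 kept their side with heat. PUB1 had 71.2 to 115 CPM in pellets. In soluble RNA it had 152 to 217 CPM in WT and 105 to 126 CPM in IDRm, so the soluble libraries of the strains did not overlap (this single fraction was not tested between strains). Its ratio was -0.76 ± 0.13, -1.05 ± 0.14 and -1.11 ± 0.13 in WT. In IDRm it was -0.25 ± 0.13, which was not called, -0.58 ± 0.14 and -0.50 ± 0.13. The 30 °C value was called with only the groups compared (-0.27). The 42 °C call was lost with library totals (-0.29) and with only the groups compared (-0.54). NGR1 had 24.5 to 46.7 CPM in pellets and 13.1 to 23.0 CPM in soluble RNA, with no overlap. Its ratio ran from 0.57 ± 0.19 to 0.68 ± 0.20 in WT and from 0.89 ± 0.19 to 1.43 ± 0.19 in IDRm. The lowest of these, in WT at 30 °C, was lost without WT 30 °C pellet replicate 1 (0.40) or soluble replicate 2 (0.45). No shift of PUB1 or NGR1 against 30 °C was called, though that of PUB1 in WT at 42 °C (-0.36 ± 0.19) was with RLE size factors and with DESeq2 (-0.59 each).

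**Figure D2:**
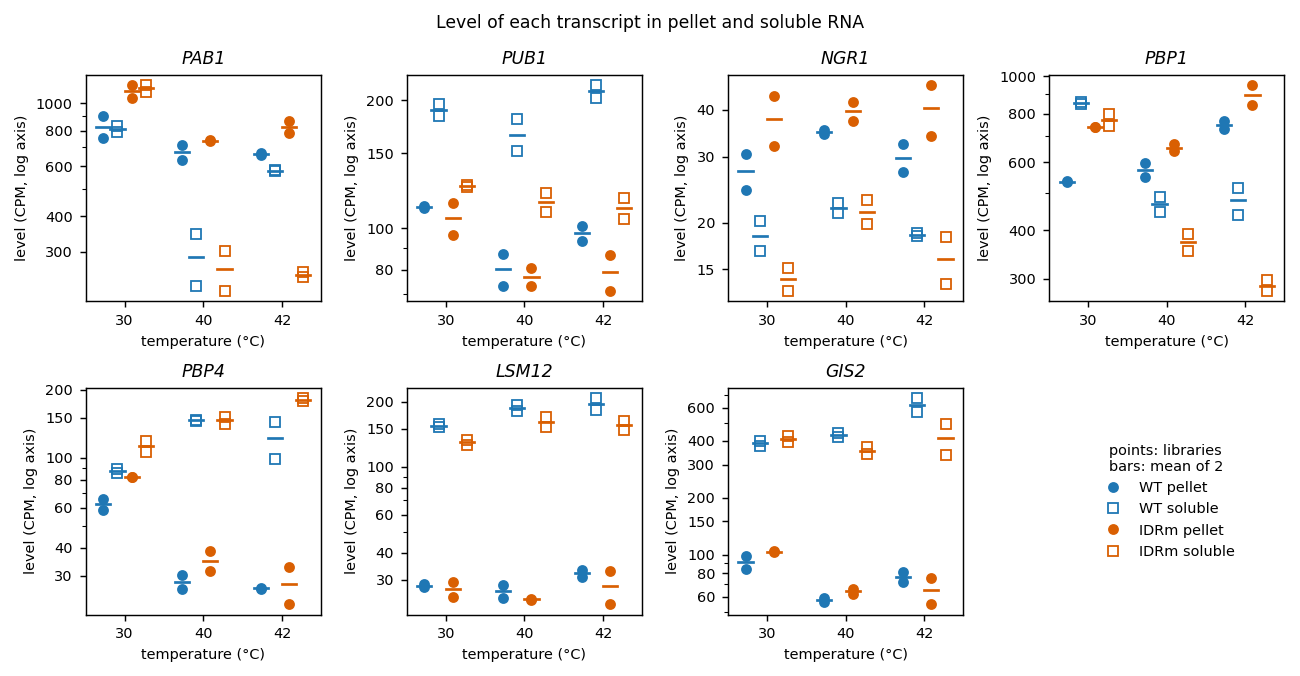
Level of the 7 transcripts in pellet (filled circles) and soluble RNA (open squares) on log axes in CPM, by temperature, with WT in blue and IDRm in orange. Points are libraries and bars the mean of 2. LSM12 squares lie above its circles throughout, PBP4 circles drop with heat, and the soluble PAB1 level at 42 °C is 576 to 580.3 CPM in WT and 243 to 254 CPM in IDRm.

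**Figure D3:**
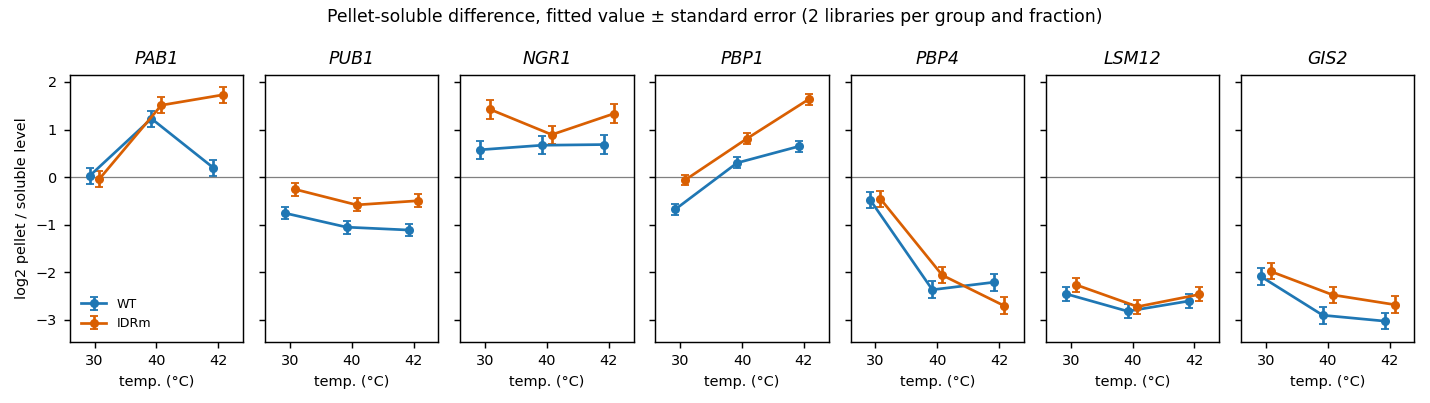
Fitted log2 of pellet over soluble level with its standard error (2 libraries per group and fraction) against temperature, with WT in blue and IDRm in orange. The strains part for PAB1 at 42 °C (0.20 and 1.73) and for PBP1 (0.65 and 1.64), and LSM12 and GIS2 stay at -1.98 or lower in every group.

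An estimate of the share of each transcript in the pellet gave a different view from the ratio. For each harvest, weights for pellet and soluble RNA were found whose sum best matched total RNA over all genes with at least 50 counts in the 3 libraries. The overall pellet share came to 22.3 and 18.1% in WT at 30 °C, 25.3 and 22.3% at 40 °C, and 29.4 and 37.2% at 42 °C. In IDRm it came to 7.90 and 3.84%, then 13.2 and 14.03%, then 22.8 and 18.3%. The overall share was lower in both IDRm harvests than in both WT harvests at each temperature, and higher at 42 than at 30 °C in each strain.

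The estimated pellet share of PAB1 was 26.0 and 18.4% in WT at 30 °C, 54.4 and 43.3% at 40 °C, and 37.8 and 51.1% at 42 °C. In IDRm it was 8.81 and 3.63%, then 31.4 and 39.3%, then 52.6 and 46.9%. At 42 °C the shares of the strains overlapped, although the ratio relative to other transcripts differed, and in both strains they lay above those at 30 °C. That of PBP1 was 16.2 and 13.4% in WT at 30 °C, 32.6 and 33.3% at 40 °C, and 43.2 and 61.1% at 42 °C. In IDRm it was 8.36 and 3.72%, then 23.3 and 26.5%, then 52.0 and 44.2%, so the estimate was over 50% in 2 of 8 heated harvests.

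The share of PBP4 in WT was 19.3 and 14.1% at 30 °C, 7.16 and 7.14% at 40 °C, and 8.90 and 19.5% at 42 °C, where it overlapped 30 °C. In IDRm it was 6.60 and 2.82%, then 3.73 and 4.98%, then 6.24 and 2.96%, with no separation by temperature. The GIS2 share in IDRm was 2.17 and 1.10% at 30 °C and 5.17 and 3.85% at 42 °C, higher although its ratio was lower. These shares were not tested. They assume that libraries with the same replicate number come from the same harvest and that no transcripts were lost in fractionation. The SD of the misfit over genes ran from 0.22 to 0.57 log2 units by harvest. The total level of PAB1 in IDRm lay below the weighted sum in all 6 harvests, by values from -1.12 to -0.45 on the log2 scale. In WT its departure was 0.75 at 30 °C (replicate 1) and -0.79 at 42 °C (replicate 2). In the other WT harvests it lay between -0.32 and 0.16. The WT 42 °C harvest of replicate 2 gave the 51.1% share of PAB1 and the 19.5% share of PBP4, and PBP4 departed there by 0.79.

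The change in level and the shift did not go together in the same way for all 7. PAB1 and PBP1 combined a lower total level with a shift toward the pellet, except for PAB1 in WT at 42 °C, where the total fell by 1.33 ± 0.28 and the shift was 0.17 ± 0.23. The ratio of PBP4 shifted to the soluble side in all 4 contrasts, while its total changes were between 0.28 ± 0.12 and 0.59 ± 0.12. NGR1 rose in total RNA with no shift called. The levels in total RNA and in the fractions were scaled apart. For PAB1 in IDRm at 30 °C both fractions (1048 to 1163 CPM) were above total RNA (641 and 785 CPM), so the fractions do not add up to the total on this scale.

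**Figure D4:**
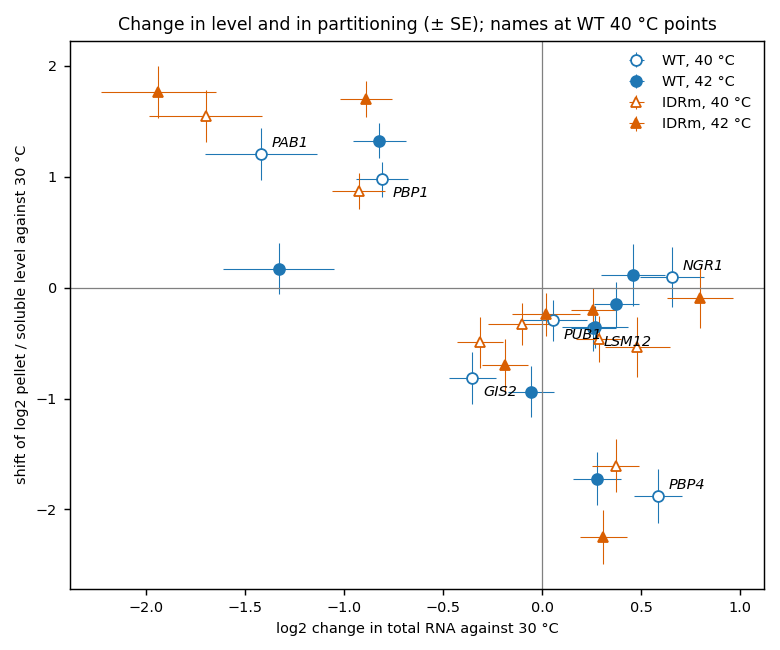
Shift of the log2 pellet-soluble ratio against 30 °C (vertical) plotted against the log2 change in total RNA (horizontal), both with standard errors. Circles are WT, triangles IDRm, open symbols 40 °C and filled symbols 42 °C, and gene names stand at the WT 40 °C points. PAB1 and PBP1 lie at the upper left, with the WT 42 °C point of PAB1 near a shift of 0.17, and PBP4 lies at the bottom right.

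Gene length moved with the fraction ratio and was not used to choose the genes. Across 5787 genes with an annotated length, longer genes had higher ratios, with a Spearman correlation of 0.46 in WT at 30 °C and 0.64 in IDRm at 42 °C. These are correlations across genes, which are not independent replicates. The 3 shortest of the 7, GIS2 (462 bp of coding sequence), PBP4 (558 bp) and LSM12 (564 bp), belong to the genes under 600 bp, whose median ratio was -0.81 in WT at 30 °C and -1.04 at 42 °C. LSM12 and GIS2 were below that median by more than 1 log2 unit in each group, and PBP4 was above it at 30 °C and below it at 40 and 42 °C. PBP1 (2169 bp) and NGR1 (2019 bp) belong to genes of 1800 bp or more, whose median in WT was 0.59 at 30 °C, 0.96 at 40 °C and 1.35 at 42 °C.

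PBP1 was below the median of its length class at 30, 40 and 42 °C in WT (-0.68, 0.30 and 0.65), and NGR1 was too (0.57, 0.67 and 0.68). In IDRm PBP1 was above it at 42 °C (1.64 beside 1.44) and NGR1 at 30 °C (1.43 beside 0.67). The median shift of that class at 42 °C was 0.63 in WT and 0.66 in IDRm, beside 1.33 and 1.70 for PBP1. PAB1 (1734 bp) belongs to genes of 1200 to 1800 bp. Their median was 0.08 in WT at 40 °C, where PAB1 had 1.23, and 0.23 in IDRm at 42 °C, where PAB1 had 1.73. The median shift of that class was -0.08 in WT at 40 °C and 0.01 in IDRm at 42 °C, beside 1.20 and 1.77 for PAB1. In genes under 600 bp the median shift at 42 °C was -0.25 in both strains, beside -1.72 and -2.25 for PBP4. The part of length in these ratios was not tested.

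Other genes of the same machinery were described by 2 lists. The first held 17 further stress granule and mRNA-binding proteins, with DED1 among them. In total RNA, 4 rose and 8 fell in WT at 40 °C, 3 and 8 at 42 °C, and in IDRm 4 and 9 at 40 °C and 2 and 8 at 42 °C. Over all genes 69.7%, 61.4%, 70.4% and 64.8% were called in these contrasts, so the counts were near the background. The median in WT at 40 °C was -0.20, beside 0.07 over all genes. RIE1, an RNA-binding protein, rose by 4.18 ± 0.15 in WT at 40 °C, and NRP1, a stress granule protein, fell by 2.66 ± 0.20 in WT and by 3.16 ± 0.20 in IDRm. In the shift, 5 moved toward the pellet and 0 toward the soluble part at 40 °C in each strain. At 42 °C the counts were 8 and 3 in WT and 7 and 1 in IDRm. Over all genes 21.0% (WT) and 21.9% (IDRm) were called at 40 °C and 38.3% and 37.2% at 42 °C, with more toward the pellet than toward the soluble part (800 and 490 genes in WT at 40 °C). NAB6, an mRNA-binding protein, shifted by 1.84 ± 0.19 in WT and 1.87 ± 0.19 in IDRm at 42 °C, and NPL3, an mRNA export factor, by -1.11 ± 0.24 in IDRm.

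The second list held 13 poly(A) tail enzymes and partners of Pab1 and Pbp1. In total RNA, 1 rose and 7 fell in WT at 40 °C and 1 and 8 at 42 °C, and in IDRm 0 and 8 at 40 °C and 1 and 8 at 42 °C. Over all genes 69.7% and 61.4% were called in WT and 70.4% and 64.8% in IDRm, in either direction. The median in IDRm at 40 °C was -0.70, beside 0.08 over all genes. SUP35, the release factor eRF3 that binds Pab1, fell by 1.32 ± 0.13 in WT and 1.72 ± 0.13 in IDRm at 40 °C. POP2, a deadenylase of the Ccr4-Not complex, fell by 0.89 ± 0.11 in WT at 40 °C and by 1.22 ± 0.12 at 42 °C. The Ccr4-Not subunits NOT3 and CDC39 fell by 1.28 ± 0.13 and 1.10 ± 0.16 in IDRm at 42 °C, and MOT2 of the same complex rose by 0.96 ± 0.20 in WT at 42 °C.

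In the shift, 5 of the 13 moved toward the pellet and 0 toward the soluble part in WT at 40 °C, and 6 and 2 at 42 °C. In IDRm it was 7 and 1, then 9 and 1. Over all genes 21.0% and 38.3% were called in WT (800 and 490, then 1448 and 905 genes toward the pellet and the soluble part) and 21.9% and 37.2% in IDRm (796 and 546, then 1441 and 841). The median at 42 °C was 0.49 in WT and 0.96 in IDRm, beside 0.06 and 0.03 over all genes. In genes of 1800 bp or more it was 0.63 in WT and 0.66 in IDRm. The lengths of the genes in either list were not taken into account. MKT1, a Pbp1 partner in the control of HO mRNA, had the largest shift of the list in each of these contrasts, from 1.45 ± 0.18 in IDRm at 40 °C to 2.78 ± 0.19 in IDRm at 42 °C. The poly(A) polymerase gene PAP1 shifted by 1.96 ± 0.21 in WT and 2.38 ± 0.21 in IDRm at 42 °C, and PAN2, a subunit of the Pab1-dependent nuclease, by 1.49 ± 0.20 in WT at 40 °C.

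The genes most like each member were found by the Pearson correlation of log2 CPM over the 18 group means. For this, unlike elsewhere, all 36 libraries were filtered and TMM-scaled together. The candidates were 3747 named protein-coding genes at 32 CPM or more on average. The points share libraries and fractions, so these are descriptions. LSM12 was followed most closely, by YRB1 (0.996), DTD1 (0.994) and EMC2 (0.994), and GIS2 by CDC36 (0.994), RPN7 (0.992) and SRP14 (0.991). PBP4 had HAT1 (0.948), RPT3 (0.946) and NBP2 (0.942), and PUB1 had TYS1 (0.940), NUP2 (0.919) and CYS4 (0.919). PAB1 had PTA1 (0.925), SHM1 (0.917) and CLA4 (0.917). PBP1 had PSE1 (0.915) and NUP116 (0.914), and NGR1 had DOT6 (0.913), SKG3 (0.911) and CYC8 (0.909).

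Among the 7 themselves, LSM12 and GIS2 were most alike (0.973), followed by PBP4 and GIS2 (0.886), PAB1 and PBP1 (0.876) and PBP4 and LSM12 (0.866). NGR1 and GIS2 were the most unlike (-0.818).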

How the data were processed

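RNA of 36 samples was depleted of ribosomal RNA, per the labels' protocols. The authors deposited raw counts of reads for each gene, obtained from reads handled by bcl2fastq 2.19.1 and, for alignment to R64, by STAR 2.5.2b, per the submitters' processing notes. Of 6697 genes, 6014 were matched by locus tag to RefSeq R64, and the 683 unmatched held 0.277% of counts.

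The 12 total RNA libraries (6090 genes, 11 contrasts) and the 24 pellet and soluble libraries (6141 genes, 17 contrasts) were fitted as separate models, with 1 term per group, 6 and 12 residual degrees of freedom, edgeR 4.0.16 quasi-likelihood tests (robust, R 4.3.3, limma 3.58.1), TMM scaling, filterByExpr at a minimum count of 10 and Benjamini-Hochberg adjustment over all genes of a contrast. With 2 libraries per group, the spread between libraries was estimated over all groups of a model, with information from other genes. The p-values rest on this shared spread and not on the libraries of the groups compared alone. The steps were tested on simulated data. Alternatives were RLE factors, library totals, no filter, DESeq2 1.42.0, a replicate block, the groups of a contrast alone and each library left out.

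The 7 genes were always named. Also named were the 3 genes most like each in log2 CPM (prior count 1), up to 2 called genes with the largest change per list and heat contrast, and DED1 and HSP104. One gene most like PBP1 is not named. The length classes were chosen after the ratios were seen. The members and lists were chosen with earlier results of these data known.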

Additional observations from a re-analysis of the deposited data

Results flagged for a closer look

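At 42 °C the log2 pellet-soluble ratio of PAB1 was higher in IDRm than in WT by 1.53 ± 0.24, and that of PBP1 by 0.99 ± 0.16 (edgeR quasi-likelihood test of the difference between strains, adjusted p = 0.000472 and 0.000726). These stand out because the same contrast differed between the strains. Both calls were lost in a model of those 4 groups alone, which called 0 of 6109 genes. For PBP1 the difference was 0.62 ± 0.16 at 30 °C and 0.51 ± 0.16 at 40 °C, not called, and the strain difference of its 42 °C shift was 0.37 (adjusted p = 0.576). For PAB1 the latter was 1.59 ± 0.33 (adjusted p = 0.0618). The difference was higher in IDRm in all pairings of its 2 libraries per fraction with those of WT for both genes. It rests on the WT soluble libraries at 42 °C, whose replicate correlation was 0.966 and whose part in the difference was not tested beyond leaving each of them out.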

How the results depend on the processing

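The number of the 7 genes called changed as follows, given as the reported count and then the other. In total RNA, WT at 42 against 30 °C went from 4 to 2 with only the groups compared, and was 2 to 5 without a library. WT at 42 against 40 °C went from 1 to 0 with RLE factors, only the groups compared, or the replicate block, and 0 to 1 without a library. IDRm at 40 against 30 °C went from 6 to 3 with library totals, and 3 to 4 without a library. IDRm at 42 against 40 °C went from 0 to 1 with library totals. Between strains, 30 °C went from 0 to 1 with library totals (0 to 2 without a library). At 40 °C it went from 1 to 0 with library totals or the replicate block and to 2 with only the groups compared (0 to 1 without a library). At 42 °C it was 3, and 0 to 3 without a library.

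Of the shifts, WT at 42 against 40 °C was 1, and 1 to 2 without a library. IDRm at 40 against 30 °C went from 3 to 5 with DESeq2 or only the groups compared. IDRm at 42 against 40 °C went from 1 to 2 with DESeq2 and to 0 with only the groups compared (1 to 2 without a library). The strain difference of the ratio went from 0 to 1 at 30 °C with DESeq2 or only the groups compared, and at 40 °C to 1 with DESeq2 and 2 with only the groups compared. At 42 °C it went from 2 to 0 with only the groups compared, where 0 of 6109 genes were called (2 to 4 without a library). The strain difference of the 42 °C shift went from 0 to 1 with RLE factors or DESeq2 (0 to 1 without a library). The cause was not tested, beyond fewer libraries where groups or libraries were left out.

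Of 196 member results, 79 were called and 56 of those kept the call under every alternative run. No called value reversed. The replicate block was a term for the replicate number, held across the temperatures and fractions of a model. It kept the side of the threshold in 192 of 196 and lost 4 calls. No term joined the pellet and soluble libraries of 1 strain and temperature, so that pairing was not tested. Replicate numbers were not shown to pair: same-numbered deviations correlated between -0.56 and 0.38 across temperatures, over 0.1 in 4 of 18 pairs. Across fractions of 1 strain and temperature they correlated between -0.24 and 0.74 (median 0.22), over 0.1 in 13 of 18, so not in every pair. Library totals moved the median ratio of all genes in WT at 42 °C from 0.16 to 0.64 and at 40 °C from 0.04 to 0.40, and RLE factors moved it at 30 °C from -0.02 to 0.14. Depth limits NGR1 most, with 69 counts in its lowest library.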
